A study of Caenorhabditis elegans with 15 samples.

Results

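The collagen genes of the Caenorhabditis elegans cuticle were examined in an experiment that recovered RNA bound to GLD-1, a translational repressor of the germ line. Members were the genes with a probe set of their own whose symbol began with col-, together with dpy-4, dpy-5, dpy-7, dpy-13, rol-6, sqt-1, sqt-3, bli-1 and bli-2. This gave 137 of the 17118 genes with their own probe set on the array, each represented by its probe set of highest mean over the 15 arrays. The choice used no contrast between groups.

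Whole worms were harvested as synchronized young adults and measured in 5 groups of 3 arrays. In 4 groups the strain was gld-1(q485) with ozIs2 [gld-1::gfp::flag]: q485 is a mutant allele of gld-1, and the transgene ozIs2 encodes GLD-1 joined to GFP and the FLAG tag. These 4 groups were total RNA before immunoprecipitation (input), the anti-MYC IP and the anti-FLAG IP of the first comparison (called MYC and FLAG of set 1 here), and the anti-FLAG IP of the second (tagged, set 2). The remaining group was the anti-FLAG IP of the wild-type strain N2 in set 2, which carries no tag. Strategy 1 was the FLAG minus the MYC IP of set 1, and strategy 2 the tagged minus the N2 IP of set 2. Each IP had received 10 µg of mouse brain RNA. A single amplification was made from 5 µg of input RNA or from 1/3 of an IP. The set from which the inputs came, and the promoter of the transgene, are not given in the sources used here.

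Cuticle collagens are small secreted triple-helical proteins made by the hypodermis, the epithelium under the cuticle. They are trimmed by proteases, hydroxylated, crosslinked and laid down in a fresh cuticle at each moult, and many are transcribed in pulses tied to the moulting cycle. They belong to the soma, whereas GLD-1 is a protein of germ cells. The question is thus how abundant somatic transcripts behaved in an IP of a germline protein. In whole worms, fewer cells of a type and less RNA per cell cannot be told apart.

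Values are log2 signal after GCRMA, a background adjustment and summary per probe set. Each array has a lowest value shared by many probe sets: 2.21 to 2.28 on the inputs and 2.46 to 2.53 on the IP arrays. A member within 0.1 of it on all 3 arrays of a group is said to be at the lowest value. From 7632 to 9352 probe sets reached log2 5 on an input array, and from 194 to 2170 on an IP array. With 3 arrays a group, precision is limited by their number. Brightness also depends on the probes, so the order of genes by signal is no order of transcript abundance.

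Many cuticle collagen genes were bright in input. Of the 137, 79 (57.7%) reached log2 5 on all 3 inputs, a level reached by 33.4% of all 22548 probe sets tested. At a mean of log2 10 or more stood 42 members (30.7%), against 917 of all probe sets (4.07%), and 17 members reached a mean of 12. The other 58 members did not reach log2 5 on every input: 51 stayed under it on all 15 arrays, 15 were at the lowest value in input, and 7 were at the lowest value in all 5 groups. Just inside the level of log2 5 lay col-111, at 5.23, 5.15 and 5.80 on the inputs. Just outside it lay col-79, at 5.35, 4.71 and 5.56.

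The members with the highest input signal were col-93, sqt-3, col-125, col-160 and dpy-13. The input signal of col-93 was 14.34, 14.27 and 14.35 (mean 14.32 ± 0.0452, SD, n = 3). For sqt-3, a collagen whose mutants are short or roll and which is needed in the embryo, it was 13.38, 14.08 and 13.64. For dpy-13, whose loss gives a short and fat (dumpy) worm, it was 13.14, 13.27 and 13.16. The 3 input arrays lay close together for col-93 and dpy-13 and further apart for sqt-3.

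Genes tied to the adult cuticle were among the bright members. An adult-enriched list held col-19, col-38, col-49, col-63, bli-1 and bli-2, and the 6 measured had input means from 8.09 to 11.85. The classical adult marker col-19, which is switched on at the last moult, read 10.59, 10.76 and 10.92. The strut collagens bli-1 and bli-2, whose loss blisters the adult cuticle, had input means of 8.09 ± 0.361 and 8.26 ± 0.505 (SD, n = 3 each). By contrast dpy-7, a collagen of the furrows between the cuticle's rings, read 5.31, 5.51 and 5.61. The dauer-associated gene col-2 read 2.89, 4.12 and 3.31, under log2 5 on every input. Of the list, col-7 and col-62 have no probe set of their own, but the probe set that names both read 10.55 ± 0.221 (SD, n = 3) in input.

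Members lay on all 6 chromosomes of the RefSeq assembly WBcel235, which gave the position of all 137 and changed 0 symbols. Chromosome IV held 39, II 27, V 24, I 19, X 19 and III 9. At log2 5 on all inputs were 25 of those on IV, 17 on V, 15 on II, 8 on III, 7 on I and 7 on X. Among protein-coding genes 25 members sat directly beside another member, in 11 runs. The longest run held 4 genes on II, col-79, col-39, col-80 and bli-1, with input means of 5.21, 10.22, 11.79 and 8.09. Of the 14 adjacent pairs, 7 had both genes at log2 5 on all inputs, 3 had neither and 4 had only 1. Among those 4 was col-183 at 2.51 beside col-184 at 11.31 on X.

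Collagen genes share sequence, and the array reflects this. Of the 137 probe sets used, 58 (42.3%) carry a suffix (_x_at or _s_at) by which the maker marks probes that match further transcripts, against 29.8% of all probe sets. Each such value may hold signal of a related collagen. A further 17 probe sets name several collagen genes at once and were kept out of the members: all were at log2 5 or more on all inputs, and 20 genes are measured only through them. A second probe set existed for 18 members, and in 4 of them, col-149, col-150, col-157 and sqt-3, it read more than 2 lower in input. The widest gap was in col-157, at 11.80 with the probe set used and 2.29 with the other.

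In every IP group the bright collagens lay far below their input signal. The 42 members at log2 10 in input are shown as a group because the inputs alone chose them. Their median signal was 11.65, 11.90 and 11.90 on the inputs. It was 3.71, 4.32 and 5.57 on the MYC IPs and 3.59, 4.56 and 6.41 on the FLAG IPs of set 1. In set 2 it was 4.34, 3.97 and 3.56 on the N2 IPs and 4.44, 3.997 and 3.82 on the tagged IPs. Tagged and control arrays overlapped in both sets, and replicate 3 of both set 1 groups stood above the rest.

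**Figure D1:**
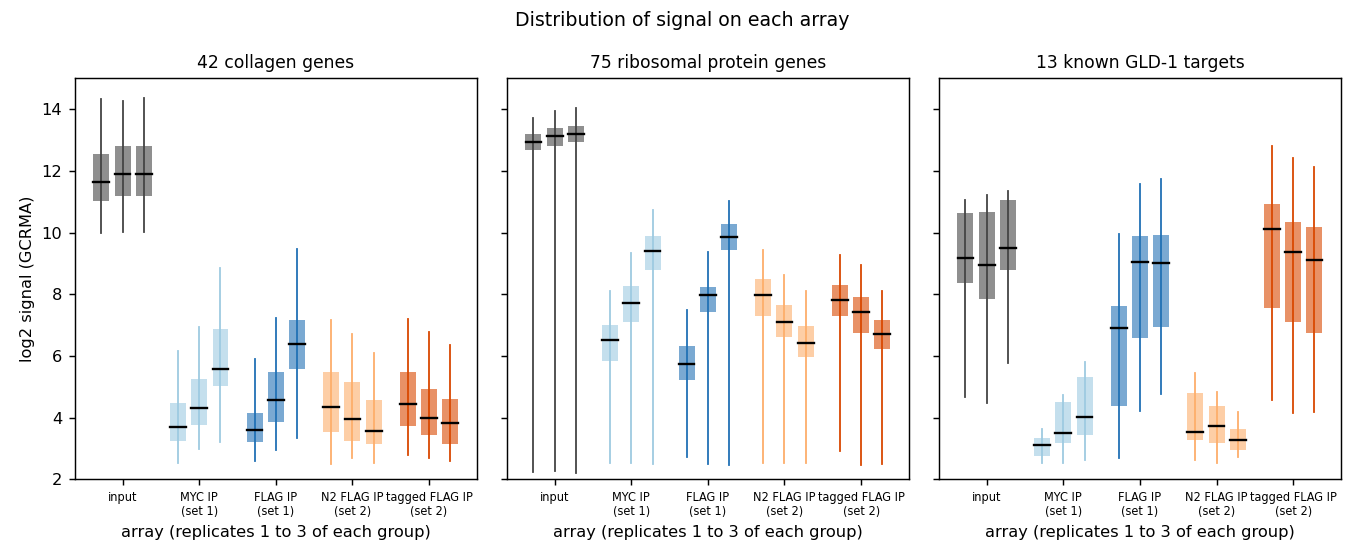
Log2 signal (vertical axis) on each of the 15 arrays (horizontal axis, replicates 1 to 3 of each group) for the 42 collagen genes at log2 10 or more in input, 75 ribosomal protein genes and 13 known GLD-1 targets; line, lowest to highest gene; box, quartiles; black bar, median. Collagen medians were 11.65 to 11.90 in input and 3.56 to 6.41 on the IP arrays with or without the tag, whereas target medians were 6.93 to 10.13 on the tagged FLAG IPs and 3.11 to 4.04 on the controls.

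The same arrays stood high for other abundant RNA. Ribosomal protein genes, a measure of background RNA, had array medians of 6.51, 7.71 and 9.40 on the MYC IPs and 5.75, 7.99 and 9.85 on the FLAG IPs of set 1. In set 2 their medians were 7.98, 7.11 and 6.44 for N2 and 7.81, 7.43 and 6.73 for the tagged IPs. Within each IP group the collagen medians followed the same order of arrays as the ribosomal medians. The part of background RNA in the collagen values was not tested. The 13 known GLD-1 targets, by contrast, had medians of 6.93, 9.06 and 9.001 on the FLAG IPs of set 1, and of 10.13, 9.37 and 9.11 on the tagged IPs of set 2.

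Few members were visible above log2 5 in an IP. On all 3 arrays of a group, 3 members reached it in MYC (col-93, col-124 and col-160), 3 in FLAG of set 1 (col-93, col-124 and dpy-13) and 3 in N2 (col-93, col-124 and col-160). In the tagged IPs of set 2 it was 6, with col-80, dpy-13 and sqt-3 beside the 3 of N2. All lay at log2 10 or more in input, of whose 42 members these counts are 7.14, 7.14, 7.14 and 14.3%. Of all 917 probe sets at that input level, 20.6, 32.7, 23.8 and 53.2% reached log2 5 in MYC, FLAG of set 1, N2 and tagged of set 2. None of the 58 members that missed log2 5 on an input reached it on any IP array.

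**Figure D2:**
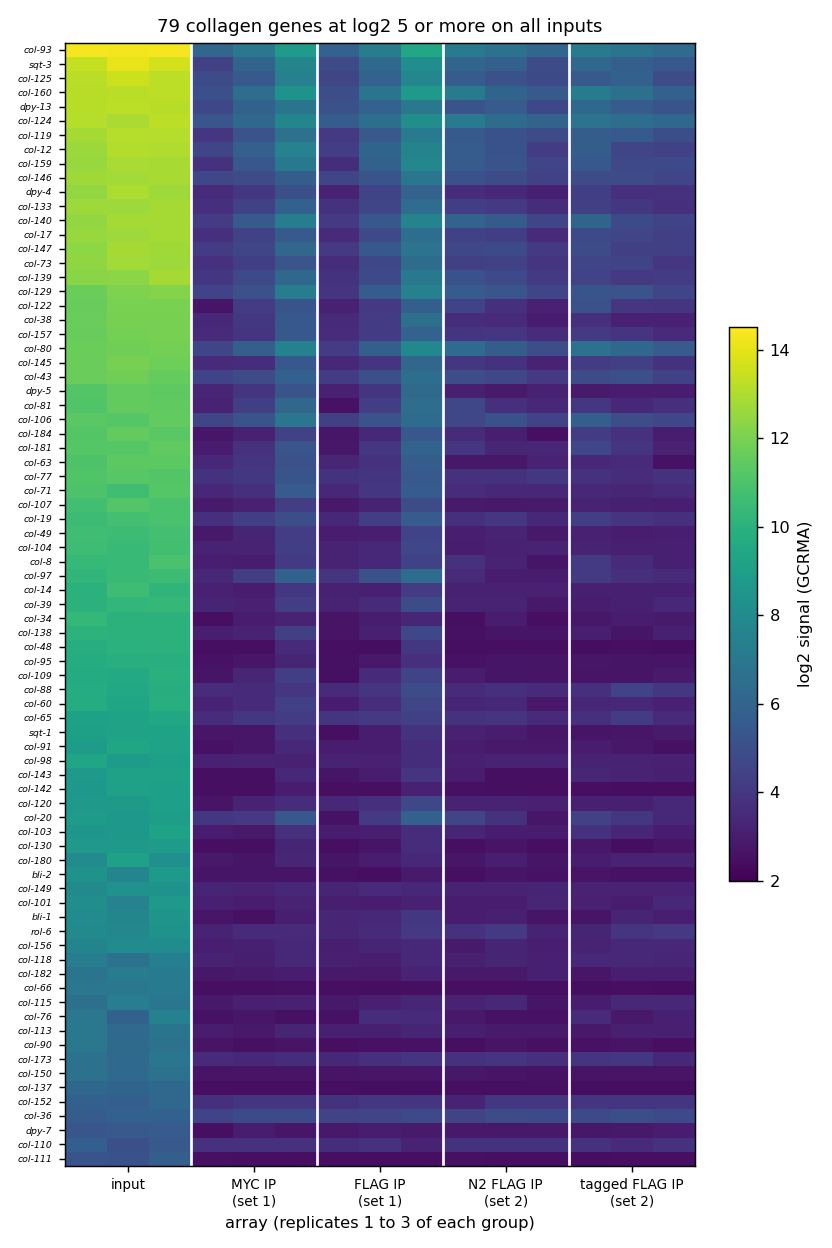
Log2 signal (colour) of the 79 collagen genes at log2 5 or more on all inputs (rows, ordered by input mean) on the 15 arrays (columns, replicates 1 to 3 of each group). The inputs are bright, from a mean of 14.32 for col-93 at the top, and the IP arrays dark throughout, with replicate 3 of both set 1 groups the least dark.

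Strategy 1 asked which transcripts the FLAG antibody recovered beyond an antibody without a target in the same strain. No collagen gene passed the test between the FLAG and MYC IPs. By limma, with p-values adjusted over all 22548 probe sets, 0 of 137 members were called higher and 0 lower at adjusted p under 0.05, against 2.41% of all probe sets higher and 0.0577% lower. The members' changes ran from -0.30 to 0.79 on the log2 scale, with a median of 0.03 (all probe sets, -0.03), and the smallest adjusted p was 0.151. At an unadjusted p under 0.05 there were 3 higher members, bli-1, col-120 and col-76, and 1 lower, col-165, against 8.52 and 3.95% of all probe sets. The highest upper bound of a 95% interval over the members was 2.76, or 6.77-fold, so for the noisiest members a change of a few fold was not detectable with these arrays. That member was col-159. For 89 members the upper bound lay under a change of 1 (2-fold).

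The adult strut collagen bli-1 had the largest change in strategy 1. It read 2.76, 2.56 and 3.07 on the MYC IPs and 3.32, 3.42 and 4.01 on the FLAG IPs. These arrays did not overlap, but all 6 lay under log2 5. The change was 0.79 ± 0.222 (SE), or 1.73-fold, with a limma adjusted p of 0.151. A second bli-1 probe set gave 0.0027 (adjusted p = 0.937). In strategy 2 bli-1 read 2.95, 3.11 and 2.69 for N2 and 2.72, 3.28 and 3.06 for the tagged IPs, a change of 0.10 ± 0.222 (SE). Without replicate 1 of the FLAG IPs, the array of lowest ribosomal signal, 2 members were called higher, bli-1 (0.92, adjusted p = 0.0493) and col-76, and 0 lower, beside 9.27 and 1.96% of all probe sets. Over the 16 alternatives run for bli-1 its adjusted p ranged from 0.0493 to 1.

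The other members at the ends of strategy 1 overlapped between the groups. The next highest was col-120, at 2.68, 3.23 and 3.62 on the MYC IPs and 3.40, 3.74 and 4.73 on the FLAG IPs (0.78 ± 0.332, SE; limma adjusted p = 0.322). Below it came col-97, at 3.38, 4.33 and 5.86 against 3.91, 5.09 and 6.402 (0.61 ± 0.710, SE; limma adjusted p = 0.602). The lowest was col-20, at 4.003, 4.10 and 5.4 against 2.59, 4.14 and 5.88 (-0.30 ± 0.816, SE; limma adjusted p = 0.833). Above it came col-106 with -0.26 and col-54 with -0.26. Without overlap of arrays were 2 higher members, bli-1 and col-105, and 5 lower, against 6.14 and 6.02% of all probe sets. All of these lay under log2 5 on the IP arrays. Of the 42 members bright in input, 0 were without overlap, against 12.3% higher among the 917 probe sets.

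Strategy 2 asked the same of the tagged strain against a strain without the tag, with 1 antibody. Again no collagen gene was called: limma gave 0 of 137 higher and 0 lower, against 5.47% of all probe sets higher and 0.173% lower. Changes ran from -0.41 to 0.63, with a median of -0.01 (all probe sets, -0.03), and the smallest adjusted p was 0.137. At an unadjusted p under 0.05 there were 0 higher members and 7 lower, against 11.1 and 23.7% of all probe sets. The 7 were col-51, col-68, col-78, col-99, col-137, col-163 and col-165, with changes of -0.0472 to -0.0376 at signals near the lowest value. That lowest value was itself lower on the tagged IPs (2.471 to 2.486) than on the N2 IPs (2.513 to 2.527). The highest upper bound of a 95% interval was 2.75, or 6.73-fold, and 94 members had one under a change of 1. These included 36 of the 79 members at log2 5 on all inputs and only 5 of the 42 at log2 10.

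Its largest change was in col-97, at 3.53, 2.93 and 2.96 for N2 and 4.12, 3.67 and 3.52 for the tagged IPs (0.63 ± 0.710, SE, 1.55-fold; limma adjusted p = 0.548). The groups overlapped narrowly. A block by set and replicate number, added after seeing the data, called col-97 in strategies 1 and 2 (limma adjusted p = 0.0155 and 0.00827). By quantile normalization its changes were -0.80 and -0.06. The labels do not say whether equal numbers pair samples. Second was col-184, at 3.47, 3.06 and 2.53 against 4.15, 3.78 and 2.97 (0.61 ± 0.695, SE; limma adjusted p = 0.549), also with overlap. Next came dpy-4, a dumpy gene, at 3.61, 3.44 and 3.10 against 4.295, 3.76 and 3.80 (0.57 ± 0.615, SE; limma adjusted p = 0.531), whose groups did not overlap. At the low end stood col-139, at 5.16, 4.74 and 4.13 against 4.54, 4.08 and 4.18 (-0.41 ± 0.804, SE; limma adjusted p = 0.743), then col-141 with -0.33 and col-140 with -0.24. For col-141 the low mean came from 1 array, tagged replicate 1, at 2.47 beside 3.36 and 3.37.

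In all, 8 members were higher without overlap of arrays in strategy 2 (col-61, col-76, col-95, col-107, col-118, col-143, col-148 and dpy-4) and 29 were lower, against 14.9 and 42.5% of all probe sets. Both shares of the members, at 137 genes, were under those of the array. Among the 42 members bright in input 2 were higher without overlap and 1 lower, against 40.1 and 0.981% of the 917 probe sets at that level. No member was higher without overlap in both strategies. The share of all probe sets that were is not given here, so this count is no result about collagens.

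**Figure D3:**
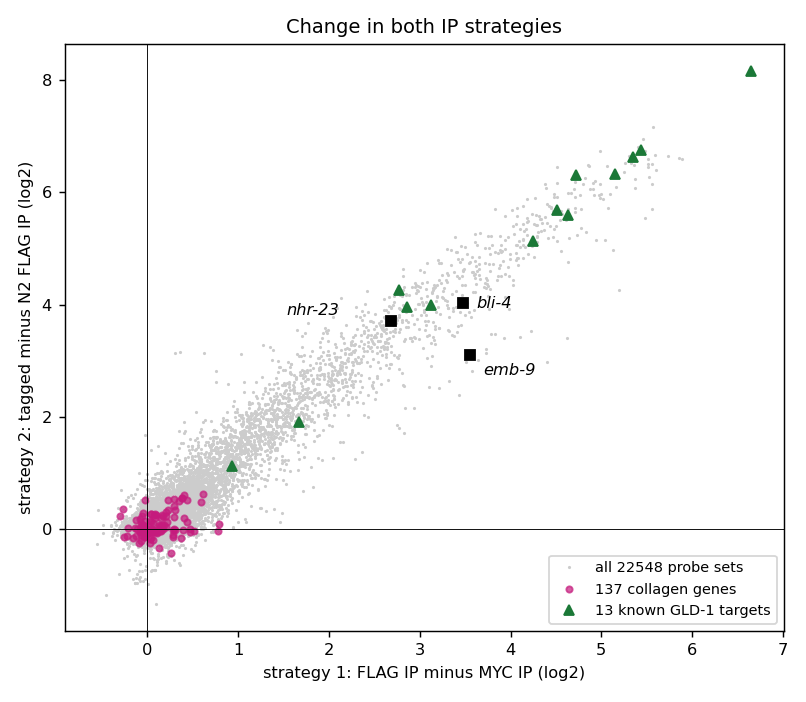
Change in strategy 1 (horizontal axis, log2) against strategy 2 (vertical axis, log2) for all 22548 probe sets (grey), the 137 collagen genes (pink), 13 known GLD-1 targets (green triangles) and 3 genes from lists related to collagen (black squares). The collagen genes lie between -0.41 and 0.79 on both axes, whereas the basement membrane collagen gene emb-9, the protease gene bli-4 and the nuclear receptor gene nhr-23 lie between 2.68 and 4.03.

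Within each strategy, the members bright in input had smaller median changes than all probe sets of that brightness. The median was 0.23 in strategy 1 and 0.17 in strategy 2, against 0.39 and 0.54 for all 917 probe sets, of which 8.4 and 14.4% were called higher. Differences between arrays of the same replicate number show how far single arrays carried these medians. In strategy 1 they were -0.07, 0.20 and 0.51 for replicates 1, 2 and 3, with 12, 31 and 41 of the 42 members higher. In strategy 2 they were 0.12, -0.02 and 0.21, with 29, 19 and 34 higher. The largest came from replicate 3 of set 1, where the ribosomal protein genes differed by 0.46, after -0.71 and 0.12 in replicates 1 and 2. With replicate 3 of both groups of set 1 left out together, an alternative added after seeing the data, strategy 1 still called 0 members.

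The strategies shared no array, and their difference was tested for each member. By limma 0 of 137 differed at adjusted p under 0.05 and 0 at an unadjusted p under 0.05, where 0% and 0.59% higher and 0.985% lower of all probe sets passed. The difference ran from -0.62 to 0.81, the highest upper bound of a 95% interval was 3.90, and the smallest adjusted p was 0.997. Probe sets that name several collagen genes gave the same picture: of 17, 0 were called, and they lay between -0.23 and 0.45 in strategy 1 and between -0.36 and 0.52 in strategy 2. Nor was any of the 18 second probe sets called.

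The scaling of the IP arrays bore on these counts. After quantile normalization of the 12 IP arrays, 23 members were called lower in strategy 1 and 24 in strategy 2, against 1.55 and 2.57% of all probe sets, with 20 members in both. None was called higher, against 3.04 and 4.27% of all probe sets. After cyclic loess they were 14 and 23, against 1.62 and 2.65%, with 14 in both and 0 higher, against 2.18 and 4.43%. The share of all probe sets called lower in both strategies is not given here for either scaling. The median of the 42 bright members was then -1.22 and -1.51 by quantile, and -1.02 and -1.50 by cyclic loess. Ribosomal protein genes fell under the same scalings: 22 and 74 of 75 were called lower by quantile, and 73 and 74 by cyclic loess, where the deposited values gave 0 and 0. Of the 42 bright members, 52.4 and 54.8% were called lower by quantile and 33.3 and 54.8% by cyclic loess. Of all 917 probe sets bright in input it was 28.9 and 44.5% by quantile and 33.7 and 48.1% by cyclic loess. Centring the arrays on the ribosomal protein genes left 0 members called in either strategy. None of these 3 scalings called a collagen gene higher, and whether some were lower depended on the scaling.

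The model of the spread bore on them too. With the spread taken from the 6 arrays of strategy 2 alone, 3 members were called higher (col-107, col-118 and col-143) and 15 lower, against 11.5 and 28.6% of all probe sets. The 3 changed by 0.23, 0.23 and 0.56 and lay under log2 5 in both groups. On the 6 arrays of strategy 1 alone 0 members were called, but so were 0 of all 22548 probe sets, and gld-1 itself had an adjusted p of 0.151, so that count carries no information on collagens.

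Collagens of other kinds and the genes that build and regulate the cuticle were read for comparison. Of 9 further cuticle collagen genes outside the naming rule, such as dpy-2, dpy-3, dpy-17, lon-3 and rol-8, 0 were called by limma in either strategy and 0 passed an unadjusted p under 0.05. Their changes ran from -0.07 to 0.33 and from -0.11 to 0.38. Of 4 collagens outside the cuticle, 1 was higher in both strategies, emb-9, which encodes a chain of the type IV collagen of basement membranes. It read 2.83, 3.68 and 4.93 on the MYC IPs and 6.42, 7.52 and 8.17 on the FLAG IPs, a rise of 3.55 ± 0.655 (SE; limma adjusted p = 0.0258). In set 2 it read 3.65, 3.93 and 2.83 for N2 and 7.18, 6.85 and 5.68 for the tagged IPs, a rise of 3.10 ± 0.655 (SE; limma adjusted p = 0.0258). The groups did not overlap in either set. The call was lost in 10 of 18 alternatives in strategy 1 and in 10 of 17 in strategy 2, with adjusted p up to 0.307 and 0.606. Its size shrank with the scaling, to 2.18 by quantile and 1.66 by cyclic loess in strategy 1 and to 1.18 and 0.48 in strategy 2. With the mean of all probe sets of the gene the rises were 2.44 and 2.51, with the call lost in both. Single arrays sufficed: it was lost without replicate 1 or 2 of MYC (3.06 and 3.49) or replicate 2 or 3 of FLAG (3.48 and 3.15), and in set 2 without replicate 1, 2 or 3 of N2 (3.19, 3.33 and 2.78) or replicate 1 or 2 of the tagged IPs (2.79 and 2.96). The partner chain let-2 gave 0.49 and 0.78 (limma adjusted p = 0.455 and 0.181).

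Of 13 genes that process or crosslink collagen, 1 was higher in both strategies, bli-4, which encodes a subtilisin-like protease that cleaves procollagen. It read 2.60, 3.26 and 3.53 on the MYC IPs and 5.27, 7.27 and 7.28 on the FLAG IPs (3.48 ± 0.556, SE; limma adjusted p = 0.0139). For N2 it read 3.08, 3.89 and 3.46 and for the tagged IPs of set 2 8.12, 7.39 and 7.02 (4.03 ± 0.556, SE; limma adjusted p = 0.0034). Its probe set carries the shared suffix. The strategy 1 call was lost in 7 of 17 alternatives, among them without replicate 1 or 2 of MYC (3.21 and 3.54) and without replicate 2 or 3 of FLAG (3.14 and 3.14). The strategy 2 call was lost in 0 of 16. By cyclic loess the rises were 1.66 and 1.53, and with the mean of all probe sets of the gene 2.11 and 2.72, all called.

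Of 9 regulators of collagen transcription and moulting, 1 was higher in both, nhr-23, a nuclear hormone receptor that drives the moulting cycle and also acts in the germ line. It was at the lowest value on all MYC and N2 arrays, so its differences are lower bounds. On the FLAG IPs of set 1 it read 4.496, 5.76 and 5.41 (2.68 ± 0.293, SE; limma adjusted p = 0.0028), and on the tagged IPs of set 2 6.63, 6.19 and 5.88 (3.71 ± 0.293, SE; limma adjusted p = 0.000419). The strategy 1 call was lost in 2 of 17 alternatives and the strategy 2 call in 1 of 16, none of which left out an array. The smallest rises, with the mean of all probe sets of the gene, were 1.33 and 2.00, both called. What nhr-23 holds beside the probe set used thus rose less on average. Of 6 cuticlin genes 0 were called, with 0 and 3 at an unadjusted p under 0.05.

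Lists of known targets and cell markers were counted in the same way. Of 13 known GLD-1 targets 10 and 12 were called higher in strategies 1 and 2, with median changes of 4.51 and 5.59. The transcript of gld-1 itself rose by 5.48 and 5.55, and by 2.92 and 3.03 with the mean of all probe sets of the gene. Its call was lost in strategy 1 on the 6 arrays alone and in strategy 2 after cyclic loess (1.69, limma adjusted p = 0.0677). Of 4 germline markers 2 and 3 were higher, and of 3 neuronal markers 0 and 2 (2 and 2 at an unadjusted p under 0.05). Of 7 hypodermis markers, the cells that make cuticle collagen, 0 were called (0 and 1 at an unadjusted p under 0.05). Moulting genes (6), intestine (5), body wall muscle (3), sperm (4) and ribosomal protein genes (75) also had 0 called, with 0 of each at an unadjusted p under 0.05 save 2 lower moulting genes in strategy 2.

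Against input, the bright cuticle collagens had larger falls in the IPs than all probe sets of that brightness had at the median. A member was called here at adjusted p under 0.05 and a change of at least 2-fold. In FLAG and MYC of set 1, tagged of set 2 and N2, 90, 90, 88 and 90 members were lower and 0 were higher, against 47.5, 48, 46.4 and 47.9% of all probe sets lower and 0.00443, 0.0177, 0.0843 and 0.0133% higher. The largest rise of any member was 0.65, so none reached 2-fold at any p. The 4 comparisons share the 3 input arrays, IP and input differ in the RNA amplified, and the N2 IP is set against input of another strain. In all 4 comparisons 88 members were lower and in none 47, for which the shares of all probe sets are not given here. The members col-36 and col-85 passed in some and changed by about 2-fold in each. Of the 79 members at log2 5 on all inputs, 78 were lower in all 4, where 98.1, 100, 95.6 and 100% of all probe sets of that level were lower. A count near these shares is no result about collagens. For 8, 8, 8 and 9 of the lower members the IP was at the lowest value, so their falls are lower bounds.

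**Figure D4:**
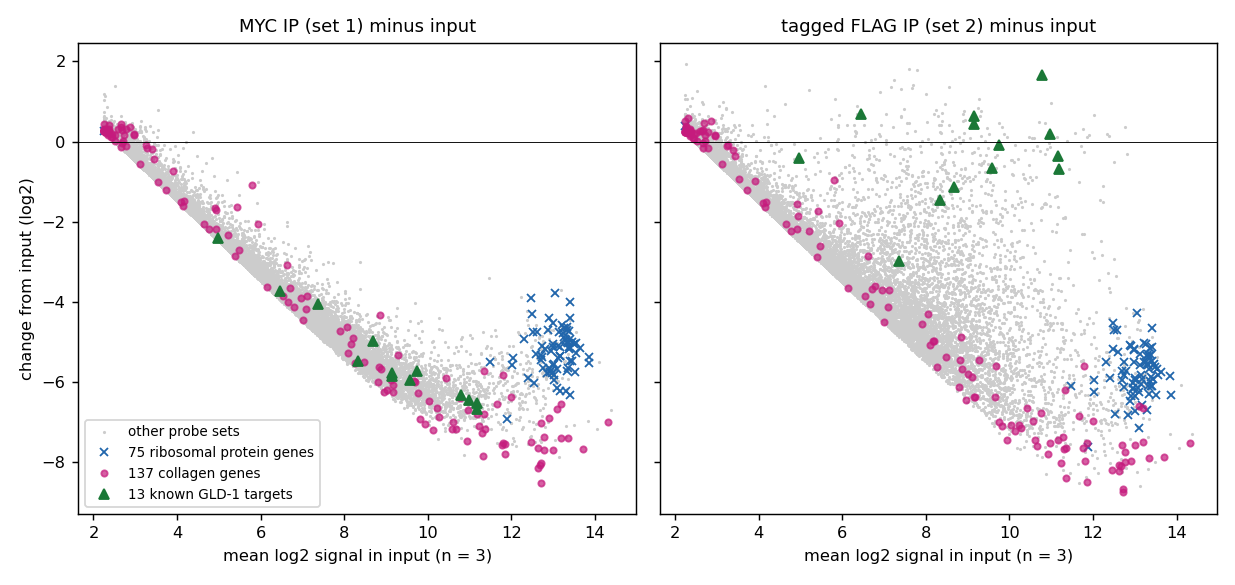
Change from input (vertical axis, log2) against mean input signal (horizontal axis, log2, n = 3) in the MYC IPs of set 1 and the tagged FLAG IPs of set 2, for the 137 collagen genes (pink), 75 ribosomal protein genes (crosses), 13 known GLD-1 targets (triangles) and other probe sets (grey). Bright collagen genes lie along the lower edge in both panels, with medians of -7.19 and -7.59 for the 42 at log2 10 or more, below the ribosomal medians of -5.19 and -5.82.

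The bright collagens lay low in the order of falls. The 42 members at log2 10 in input fell by a median of 7.01 in FLAG of set 1, by 7.19 in MYC, by 7.59 in tagged of set 2 and by 7.69 in N2, which is 129-, 146-, 193- and 206-fold. All 917 probe sets chosen at the same input level had medians of -5.57, -6.25, -5.90 and -6.62. Ribosomal protein genes had medians of -5.26, -5.19, -5.82 and -5.90. In 3 comparisons all 42 members fell below the ribosomal median, and in tagged of set 2 it was 41. Of the 42, 32, 27, 29 and 24 lay among the 92 lowest of the 917 (76.2, 64.3, 69 and 57.1%). Both groups were chosen on the input arrays that enter the change, so no test is given.

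The largest fall of all 22548 probe sets was that of dpy-4 in each of the 4 comparisons. It read 12.48, 12.98 and 12.69 in input, 3.51, 4.03 and 5.03 in MYC and 3.26, 4.54 and 5.91 in FLAG of set 1. No IP array came near the inputs. It fell by 8.15 ± 0.561 (SE) in FLAG of set 1, by 8.53 in MYC, by 8.77 in tagged of set 2 and by 9.34 in N2, which is 284- to 646-fold (limma adjusted p = 1.1e-07 or lower). Over the 11 alternatives, among them other scalings, its smallest changes were -2.91, -2.52, -2.99 and -3.41 in the same order, each called lower. The 3 next largest falls of members in each comparison belonged to col-133, col-17, col-73, col-38 or dpy-5. The input signal of col-133 was 12.65, 12.67 and 12.81, and it fell by 8.03 in MYC and by 8.69 in N2. On chromosome II col-17 and col-73, which form a run with col-20, fell by 8.10 and 8.16 in MYC, and the adult-enriched gene col-38 by 8.51 in tagged of set 2. Among the 100 probe sets with the largest falls, members made up 34, 29, 30 and 25, further probe sets of members 4 in each, and probe sets naming several collagens 15, 14, 14 and 14. Only probe sets bright in input can fall this far, so these counts also depend on input signal.

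The genes named from mutants and col-19 were lower in every IP group. The fall in MYC was 7.68 for sqt-3, 7.40 for dpy-13, 7.18 for dpy-5, 6.42 for col-19, 6.10 for sqt-1, 5.55 for bli-2, 5.30 for bli-1, 4.63 for rol-6 and 2.72 for dpy-7, each called lower. For dpy-5, a dumpy gene, the inputs read 11.17, 11.51 and 11.38 and the N2 IPs 3.09, 2.91 and 3.15. For rol-6, whose dominant alleles make worms roll and serve as transformation markers, the inputs read 7.995, 7.83 and 8.38 and the MYC IPs 3.26, 3.53 and 3.54. For sqt-1, whose mutants are dumpy or roll, they read 9.08, 9.20 and 9.23 and 2.75, 2.75 and 3.72. For dpy-7 the input mean of 5.48 ± 0.151 (SD, n = 3) stood beside a MYC mean of 2.75 ± 0.215 (SD, n = 3). At the upper end col-105, which led in FLAG of set 1, tagged of set 2 and N2, stood 0.44, 0.58 and 0.65 above input, and col-177 led in MYC with 0.44. Their input means were 2.30 and 2.67, near the lowest value, as were those of col-148, col-75, col-131, col-56 and col-116, which followed them.

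**Figure D5:**
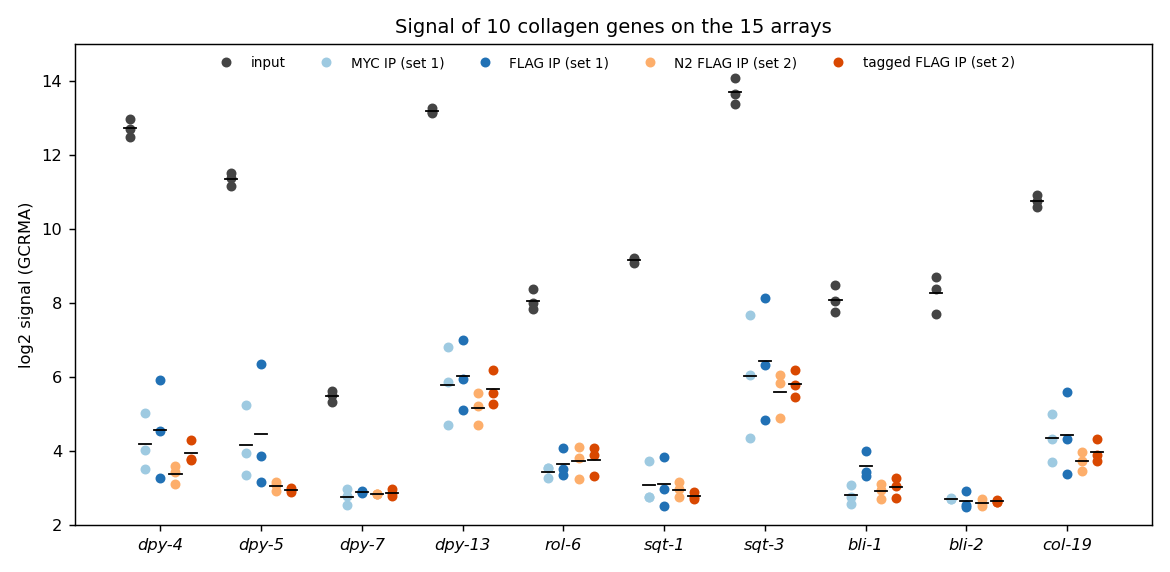
Log2 signal (vertical axis) of 9 collagen genes named from mutants and of col-19 (horizontal axis) on the 15 arrays; points are arrays, bars are means of 3. Inputs lie above every IP array of the same gene, and tagged and control IPs overlap, except for bli-1 in set 1 and dpy-4 in set 2.

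Across members the IP signal followed the input signal. Over the 42 bright members Pearson's r between the input mean and the IP mean was 0.825 for MYC, 0.868 for FLAG of set 1, 0.828 for N2 and 0.817 for tagged of set 2. Between the means of the MYC and FLAG IPs of set 1 it was 0.985, and between N2 and tagged of set 2 0.971. These describe genes that share arrays and, in part, probe sequence, and they are not independent points. The collagens that remained brightest in the control IPs, col-93, col-124, col-160 and sqt-3, were also among the brightest in input. The highest IP signal was that of col-93, at 6.15, 6.95 and 8.85 in MYC and 7.18, 6.70 and 6.11 in N2, beside 5.92, 7.23 and 9.48 in FLAG of set 1 and 7.21, 6.79 and 6.37 in tagged of set 2. Its values overlapped between tagged and control arrays in both sets.

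The median change of the bright members from input stayed negative under both other scalings run, at a smaller size. Centred on the ribosomal protein genes, the 42 bright members had median changes of -1.77, -1.96, -1.81 and -1.76 in FLAG of set 1, MYC, tagged of set 2 and N2. After quantile normalization of all 15 arrays the medians were -2.51, -1.42, -2.91 and -1.76. Counts over all 137 members changed sides: centred on ribosomal protein genes, 64, 64, 69 and 68 members were higher than input and 21, 25, 23 and 22 lower, against 73.3, 68.4, 80.8 and 74.9% of all probe sets higher and 0.173, 0.35, 0.297 and 0.302% lower.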

How the data were processed

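The 15 Affymetrix arrays were analysed from 1 deposited table of log2 values per probe set, made by the authors with GCRMA, per the submitters' processing notes (version not stated). The table had 0 columns without a sample. Groups and replicate numbers came from the sample titles. Nothing says that replicates were separate cultures, so p-values measure the spread between these samples. Of 22625 probe sets, 77 controls were left out. Group means were modelled by lmFit and eBayes of limma 3.58.1 (R 4.3.3), two-sided, with Benjamini-Hochberg adjustment over 22548 probe sets. Both strategies and their difference used the 12 IP arrays, and the comparisons with input all 15. An exact permutation test of 3 arrays against 3 cannot fall below 0.1. The code was tested on simulated data.

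Members and gene lists (general knowledge) were chosen with earlier results of these data known. Genes were named by rule: the 9 mutant-named genes and col-19, the 3 highest and 3 lowest members of each comparison, the 5 brightest in input, the 4 brightest in the control IPs and called genes of the other lists. The members listed by count, neighbourhood or threshold were named after their values were seen. Listed genes without their own probe set were left out. No sequences are shown. Alternatives were other scalings, filters, spread models, probe set choices, blocks, levels and left-out arrays.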

Additional observations from a re-analysis of the deposited data

How the results depend on the processing

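Values follow the order FLAG of set 1, MYC, tagged of set 2 and N2 for the changes from input, and the cause of each shift was not tested. Quantile normalization gave 23 lower members in strategy 1 (median -0.32, bright members -1.22) and 24 in strategy 2 (-0.33 and -1.51). It turned the sign of some named genes that it also called. In strategy 1 they were dpy-4 (-1.06), dpy-13 (-1.46), sqt-3 (-1.27), col-19 (-1.38), col-139 (-1.34), col-140 (-1.58), col-125 (-1.56), col-160 (-1.44) and col-124 (-1.32). In strategy 2 they were dpy-13 (-1.87), sqt-3 (-2.16), col-19 (-1.16), col-106 (-1.85), col-93 (-2.32), col-125 (-2.02) and col-160 (-2.14). Sign turns without a call are not listed. That of col-97, the highest member of strategy 2, was to -0.80 in strategy 1 and -0.06 in strategy 2. Cyclic loess gave 14 lower in strategy 1 (median -0.21) and 23 in strategy 2 (-0.17, bright members -1.50). With a call it turned in strategy 1 dpy-13 (-1.89), sqt-3 (-1.89), col-19 (-1.01), col-93 (-2.69), col-125 (-1.94), col-160 (-2.42) and col-124 (-2.24). In strategy 2 it turned dpy-13 (-2.41), sqt-3 (-2.97), col-19 (-1.18), col-106 (-2.17), col-93 (-3.87), col-125 (-2.68) and col-160 (-3.30). Without a call col-97 turned to -0.51 in strategy 1 and -0.82 in strategy 2. Centring on ribosomal protein genes gave a strategy 2 median of -0.15. The filter at log2 5 on 3 or more IP arrays gave one of 0.21, over the 19 members that it kept. The 6 arrays of strategy 2 alone called 3 higher and 15 lower. Leaving out single replicates gave 0 to 2 higher members in strategy 1, with the 2 when FLAG replicate 1 was left out, and 0 in strategy 2. In same-numbered arrays deviations from group means had r of 0.803, -0.07 and 0.873 in set 1 and 0.511, 0.037 and 0.52 in set 2. Between replicates 1 and 3 of opposite groups r was -0.83 and -0.837 in set 1 and -0.496 and -0.525 in set 2. The 3 deviations of a group are tied by their mean, so these values do not decide whether the numbers pair samples. The labels do not say, and the main fit took no pairs. With the replicate number as a block, strategies 1 and 2 called 0 members, with 228 and 812 of all probe sets higher in place of 543 and 1233. The changes from input then kept 90, 90, 88 and 90 lower members. This block gives a number the same effect in both sets, so its counts are no check on pairing within a set. The block by set and number, added after seeing the data, called 1 higher in strategy 1 (col-97, adjusted p = 0.0155) and 5 higher (col-8, col-97 with adjusted p = 0.00827, col-118, col-122 and col-143) and 9 lower in strategy 2, beside 3.17, 11.6 and 24.5% of all probe sets. Against input, quantile normalization gave 12, 19, 12 and 27 higher and 51, 36, 53 and 41 lower members (of all probe sets 4.25, 4.29, 5.18 and 5.27% and 3.93, 3.02, 5.66 and 4.83%), with medians of -0.16, -0.0029, -0.28 and 0.009 and for the bright members -2.51, -1.42, -2.91 and -1.76. Ribosomal centring gave 64, 64, 69 and 68 higher and 21, 25, 23 and 22 lower, with medians of 1.37, 1.32, 2.06 and 1.98 and for the bright members -1.77, -1.96, -1.81 and -1.76. With no minimum change 29, 32, 32 and 30 were higher, against 38.5, 39.2, 39 and 39.5% of all probe sets. The filter at log2 5 on 3 or more arrays gave medians of -6.31, -6.42, -6.78 and -6.97 over the members that it kept. Members without a shared suffix, which are fewer, gave 43, 43, 42 and 43 lower, with medians of -1.57, -1.51, -1.54 and -1.53 and for the bright ones of tagged of set 2 and N2 -7.17 and -7.30. At log2 4 in place of 5, 16, 15, 18 and 19 members were visible in MYC, FLAG of set 1, N2 and tagged of set 2, and at log2 7 0 were in each of the 4. The other 279 summary values were counts equal to or within 1.5 times the value reported, or medians within 1 SD of the array medians. Their direction was not checked. By cyclic loess the strategy 1 median of the bright members turned from 0.23 to -1.02 within that SD. Signals near the lowest value limit the collagen comparisons: 28, 28, 27 and 24 members were at it in MYC, FLAG of set 1, N2 and tagged of set 2, below which no fall could be measured.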
